A study of Mus musculus with 4 samples.

Results

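The ephrin-B ligands and their EphB receptors were followed in RNA-seq of mouse femoral osteocyte cultures with and without PPARα, a nuclear receptor that controls genes of fatty acid use. The 8 genes were taken by symbol: the ligands Efnb1, Efnb2 and Efnb3 and the receptors Ephb1, Ephb2, Ephb3, Ephb4 and Ephb6, of 37411 genes in the count table. The αKO group had 2 libraries from mice carrying a global deletion of Ppara, and the WT group had 2 libraries from mice with an intact Ppara. By the labels, all 4 libraries came from 5-month-old mice, were left untreated, and were grown for 6 days ex vivo after collagenase digestion of the femur. The labels give the strain as C57BL/6 and the study's methods as 129S4/SvJae, and the methods give another age and culture time. A comparison name in the deposited workbook mentions DMSO for both genotypes. The labels call the libraries biological replicates without saying whether each was a separate mouse or pool, so p-values measure the spread between these libraries only.

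The libraries held between 25136628 and 27496137 counted reads. Ppara itself had 15 and 9 counts in αKO and 16 and 13 in WT. By the methods the knockout allele carries a cassette in place of part of an exon, so the remaining exons can still be counted and these counts do not check the genotype. Replicate 1 and replicate 2 differed within each genotype along the GC content of the transcripts. Over 13511 tested genes, the Spearman correlation of GC content with the log2 difference of WT replicate 1 minus WT replicate 2 was -0.74, and for αKO it was -0.61. These are correlations across genes, which are not independent replicates and share their libraries. Of the osteocyte markers, Sost and Fgf23 had 0 counts in every library, which allows up to 0.112 to 0.121 CPM (counts per 1000000 reads counted in genes, with TMM scaling), and Mepe had at most 4. Dmp1 had 23 and 110 counts in αKO and 306 and 455 in WT. Of the 8 osteocyte markers 5 could be tested, and the summed level of the 8 was 80.6 and 41.4 CPM in αKO against 227 and 228 in WT. Most of this sum was Pdpn, at 76.3 and 31.7 CPM in αKO and 196 and 201 in WT. Of the 5 tested, 4 had a log2 fold change below 0, and Fbln7 had 1 above it. The label of osteocytes therefore rested on few of its defining markers. The summed level of 20 macrophage markers was 34850 and 28783 CPM in αKO and 22584 and 12763 in WT, with a log2 fold change above 0 for 20 of the 20. That of 13 osteoblast markers was 26658 and 23984 in αKO and 27791 and 28188 in WT, with 12 of the 13 below 0. In such bulk cultures, fewer cells of a type and less RNA per cell cannot be told apart.

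Ephrin-B proteins span the membrane, so a ligand on 1 cell and an EphB receptor tyrosine kinase on its neighbour both signal on contact: forward through the kinase, and in reverse through the ligand's cytoplasmic tail. In mouse bone, ephrin-B2 on osteoclast precursors and EphB4 on osteoblasts are known as a pair through which the cells that resorb bone and those that form it act on each other. PDZ-domain proteins bind the last residues of the ephrin-B tail, and SH2 adaptors and Src-family kinases dock on the phosphorylated tail and receptors.

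The tail shared by the ligands is shown because reverse signalling runs through it. Each line gives the last 60 coding bases before the stop codon, 5′ to 3′, from GENCODE on GRCm38, with the last 4 codons, the PDZ-binding tail, in capitals.
Efnb1 (chrX:99147465-99147524, plus strand): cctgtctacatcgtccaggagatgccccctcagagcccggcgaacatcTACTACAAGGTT
Efnb2 (chr8:8620591-8620650, minus strand): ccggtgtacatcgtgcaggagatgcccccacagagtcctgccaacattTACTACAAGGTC
Efnb3 (chr11:69555863-69555922, minus strand): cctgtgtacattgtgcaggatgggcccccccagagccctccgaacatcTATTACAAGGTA
Efnb1 and Efnb2 were identical at 51 of the 60 bases, Efnb1 and Efnb3 at 49, and Efnb2 and Efnb3 at 48.

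The catalytic loop of the receptor kinase is shown because it sets Ephb6, which is known to lack kinase activity, apart from the other receptors. Each line gives 48 coding bases, with the 3 codons of the catalytic-loop motif in capitals.
Ephb1 (chr9:101964016-101964063, minus strand): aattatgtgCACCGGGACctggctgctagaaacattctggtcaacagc
Ephb2 (chr4:136659647-136659694, minus strand): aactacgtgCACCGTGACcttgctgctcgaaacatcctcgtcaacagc
Ephb3 (chr16:21221369-21221416, plus strand): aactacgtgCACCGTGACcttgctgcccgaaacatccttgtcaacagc
Ephb4 (chr5:137369797-137369844, plus strand): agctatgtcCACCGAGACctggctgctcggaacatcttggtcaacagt
Ephb6 (chr6:41618655-41618702, plus strand): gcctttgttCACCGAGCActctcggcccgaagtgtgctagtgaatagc
Counted from 1 at the first base of each stretch, Ephb6 differed from each of the other receptors by A17C and C18A, both in the codon for the catalytic aspartate. Ephb2 and Ephb3 were identical at 46 of the 48 bases. Ephb1 to Ephb4 were identical to each other at 79.2% to 95.8% of the bases, and Ephb6 was identical to them at 58.3% to 62.5%.

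The 8 genes lay on 8 chromosomes of GRCm38: Efnb1 at chrX:99136130-99148991, Efnb2 at chr8:8617434-8661242, Efnb3 at chr11:69554092-69560205, Ephb1 at chr9:101922128-102354693, Ephb2 at chr4:136647539-136835988, Ephb3 at chr16:21204755-21223305, Ephb4 at chr5:137350109-137378669 and Ephb6 at chr6:41605482-41620509. The longest identical coding run between any pair of members was 38 bases, in Ephb1 and Ephb3. Whether all their reads were told apart was not tested. Of the 50-base words in their exons, 0.182% for Ephb2, 0.118% for Ephb3 and 0% for the other members occurred in another gene. Ephb4 shared 33 exon bases with Zan on the other strand, and 152 exon bases of Ephb1, which had only 1 to 3 counts, were overlapped by other genes on the other strand, while the strand setting of the counting is not given in the sources used here. The RefSeq table held the 250 bases before the start of 7 members, in GRCm38.p6, and had no entry for Efnb3. AGGTCA, the hexamer bound by nuclear receptors such as PPARα, was searched on both strands and occurred in 0 of these 7 and in 14.0% of all promoters. The GC-rich hexamer GGGCGG, searched likewise, occurred 3 times before Efnb2, 2 times before Ephb3, 4 times before Ephb4 and 5 times before Ephb6, and in 32.7% of all promoters. The 7 stretches had 54.0% to 76.8% GC, where the median of all promoters was 52.4%. The part of GC content in the hexamer counts was not tested.

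Efnb1 was the main ligand in every library, and Ephb4 was the main receptor. Levels between genes were compared as the authors' TPM (transcripts per 1000000), which divides by transcript length. Efnb1, whose loss in humans causes a craniofacial syndrome, had 61.8 and 114 TPM in αKO and 39.3 and 149.9 in WT. Its mean of 91.3 TPM lay above that of 85.8% of tested genes. Ephb4, which marks veins and is present on osteoblasts, had 8.14 and 13.5 TPM in αKO and 8.52 and 29.2 in WT. Efnb2, which marks arteries and binds EphB4, had 8.84 and 4.83 TPM in αKO and 9.05 and 21.2 in WT. Efnb2 stood above Ephb4 in both replicates 1 and below it in both replicates 2, so their levels did not differ beyond the spread over libraries. Relative to Efnb1, the lengths behind the authors' TPM were 1.33 for Efnb2 and 1.34 for Ephb4, while the GENCODE exon lengths were 1.99 and 1.34. With the GENCODE lengths, Ephb4 stood above Efnb2 in every library.

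Below them came Ephb3, Ephb2 and Ephb6, among which the place of Ephb6 changed between libraries. Ephb3, known for placing cells in the intestinal crypt, had 3.73 and 3.86 TPM in αKO and 3.57 and 7.48 in WT. Ephb2, known in axon guidance and at synapses, had 2.86 and 3.44 in αKO and 3.04 and 4.69 in WT. Ephb6 had 2.11 and 4.18 in αKO and 2.05 and 5.92 in WT. Ephb3 stood above Ephb2 in all 4 libraries, and Ephb6 stood below both in the replicate 1 libraries, above both in αKO replicate 2 and between them in WT replicate 2. With the GENCODE lengths, Ephb3 stood above Ephb2 in WT replicate 2 only, so this order rests on the lengths used. Efnb3, known from axon guidance at the neural midline, and Ephb1, a receptor known from the sorting of retinal axons, were close to absent. Efnb3 lay between 0.085 and 0.295 TPM and Ephb1 between 0.014 and 0.043 TPM.

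**Figure D1:**
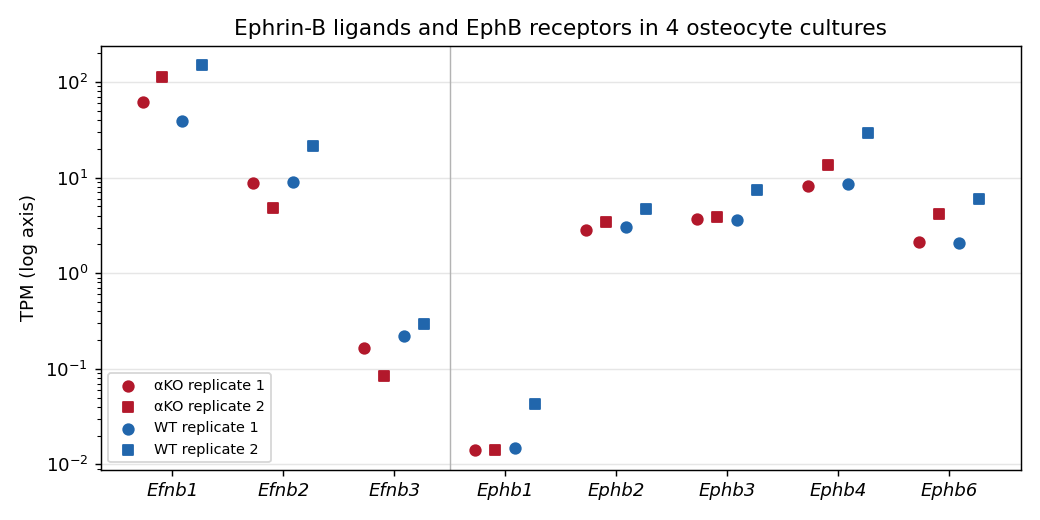
Level of each ephrin-B ligand and EphB receptor in TPM (log axis) in each of the 2 αKO and 2 WT libraries, with a point per library. Efnb1 lies highest in every library, up to 149.9 TPM, and Efnb3 and Ephb1 lie below 0.3 TPM in all 4.

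Within the ligand pool, Efnb1 made up 87.3% and 95.9% of the summed TPM in αKO and 80.9% and 87.5% in WT. Efnb2 made up 12.5% and 4.06% in αKO and 18.6% and 12.4% in WT. Efnb3 made up 0.455% at most. The ratio of Efnb1 to Efnb2 was thus 6.99 and 23.6 in αKO and 4.34 and 7.08 in WT, with αKO replicate 2 far above the others. Within the receptor pool, Ephb4 made up 48.3% and 53.9% in αKO and 49.5% and 61.7% in WT. Ephb3 ranged from 15.5% to 22.1%, Ephb2 from 9.89% to 17.7% and Ephb6 from 11.9% to 16.7%. The receptor pool was therefore shared among 4 receptors in both genotypes, while the ligand pool rested on 1 ligand.

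The ephrin-B pool summed to 70.8 and 118.9 TPM in αKO and 48.6 and 171 in WT. The EphB pool summed to 16.8 and 24.95 TPM in αKO and 17.2 and 47.4 in WT. Both pools were lower in the replicate 1 libraries than in the replicate 2 libraries, and the genotypes overlapped. The ratio of ligand to receptor TPM was 4.20 and 4.77 in αKO and 2.82 and 3.62 in WT, so both αKO libraries stood above both WT libraries. On the log2 scale it was 2.16 ± 0.128 in αKO and 1.68 ± 0.253 in WT (SD, n = 2 each), a difference of 0.48. The exact two-sided permutation test gave p = 0.333, the smallest that 2 against 2 libraries can give. The ratio of Efnb2 to Ephb4 was 1.09 and 0.359 in αKO and 1.06 and 0.725 in WT. Here the genotypes overlapped, with a log2 difference of -0.49 and p = 1.0 in the same exact permutation test. Without αKO replicate 2 that difference was 0.31.

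**Figure D2:**
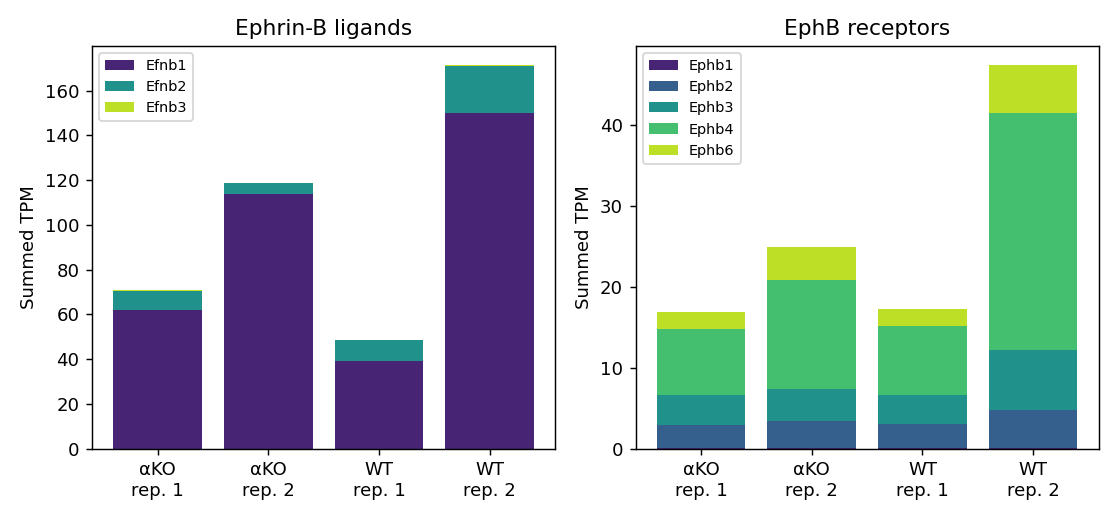
Summed TPM of the ephrin-B ligands and of the EphB receptors in each library, stacked by gene, with separate vertical scales for the ligands and receptors. Efnb1 fills 80.9% to 95.9% of the ligand bars, and Ephb4 fills 48.3% to 61.7% of the receptor bars.

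In WT, the replicates of each tested member differed by more than the genotypes did. Efnb1 had 87.0 and 165.8 CPM in αKO and 47.8 and 200.01 in WT, so that the highest and the lowest library were both WT. Ephb4 had 15.4 and 26.3 CPM in αKO and 13.9 and 52.3 in WT. Ephb6 had 3.43 and 7.02 in αKO and 2.88 and 9.12 in WT. For these genes, replicate 2 stood above replicate 1 in both genotypes, by 4.19-fold for Efnb1, 3.77-fold for Ephb4 and 3.16-fold for Ephb6 in WT. Ephb2 had 13.5 and 16.8 CPM in αKO and 12.4 and 20.9 in WT. Ephb3 had 6.74 and 7.22 in αKO and 5.58 and 12.8 in WT, where only WT replicate 2 stood apart. Replicate 2 was the higher in both genotypes for 5 of the 6 tested members and for 35.6% of all tested genes.

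Efnb2 was the exception. It had 16.5 and 9.32 CPM in αKO and 14.6 and 37.5 in WT, so the lowest library was αKO replicate 2 and the highest WT replicate 2. The exact Poisson 95% intervals, which cover counting error only, ran from 15.0 to 18.2 CPM in αKO replicate 1 and from 8.15 to 10.6 in αKO replicate 2. In WT they ran from 13.2 to 16.1 and from 35.2 to 39.9, so the gap between replicates exceeded counting error in both genotypes. Of all tested genes, 14.7% were lower in αKO replicate 2 than in αKO replicate 1 and higher in WT replicate 2 than in WT replicate 1.

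The gaps were set beside those of other genes of like GC content. The GC content was 57.6% for Efnb1, 58.1% for Ephb4, 59.5% for Ephb6, 57.4% for Ephb3, 55.9% for Ephb2 and 53.2% for Efnb2, above that of 66.7% to 95.2% of tested genes. In WT, the log2 difference of replicate 2 minus replicate 1 was 2.06 for Efnb1, where the median of 1074 genes within 1 percentage point of its GC content was 1.24. For Ephb4 it was 1.91 beside a median of 1.38, and for Ephb6 it was 1.64 beside 1.65. Ephb3 lay at 1.19 beside 1.20 and Ephb2 at 0.76 beside 0.87. In WT, Ephb2, Ephb3 and Ephb6 thus lay near the median of genes of like GC content, while Efnb1 and Ephb4 lay above it. Efnb2 in WT lay at 1.36 beside a median of 0.43, above 91.8% of genes of like GC content. In αKO, Efnb1 lay at 0.93 beside 0.42, Ephb4 at 0.77 beside 0.46, Ephb6 at 1.02 beside 0.60, Ephb2 at 0.31 beside 0.27 and Ephb3 at 0.10 beside 0.41, so Ephb3 alone of these lay below the median. Efnb2 in αKO lay at -0.82, where the median of 1504 genes of like GC content was 0.09 and 2.26% of them lay lower. The part of GC content in the levels was not tested.

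**Figure D3:**
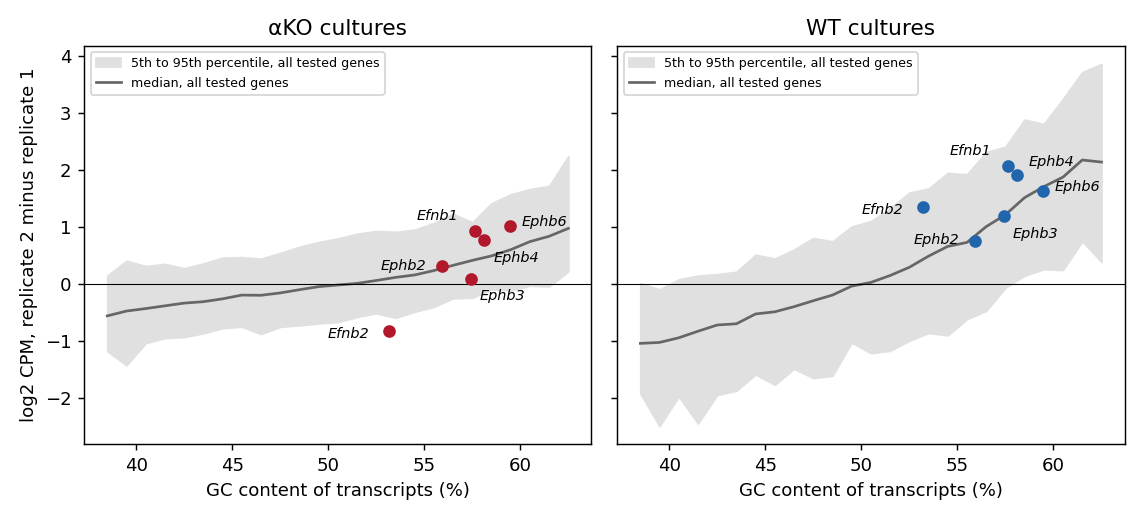
Log2 CPM of replicate 2 minus replicate 1 against the GC content of the transcripts in percent, for αKO (left) and WT (right), with the tested members as points over the median (line) and the 5th to 95th percentile (band) of all tested genes. Efnb2 lies at -0.82 in αKO and stands at 1.36 in WT, and the other members are above 0 in both.

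No ephrin-B or EphB gene passed the test of αKO against WT. Efnb3 and Ephb1 were too low to test. Of the other 6 members, 0 were called by the quasi-likelihood test of edgeR with Benjamini-Hochberg adjustment at 0.05, and the share of all 13571 tested genes called was 0%. At an unadjusted p under 0.05 stood 0 of the 6 members and 5.39% of all genes. DESeq2 called 0 of the 6 and 0.368% of all genes, and edgeR's likelihood ratio test called 0 of the 6 and 0.206% of all genes. Efnb2 had the largest difference, 12.9 ± 5.10 CPM in αKO and 26.1 ± 16.2 in WT (SD, n = 2 each). Its log2 fold change was -1.01 (SE 0.588, edgeR adjusted p = 0.997), a level 2.02-fold lower in αKO. Ephb4 had 20.8 ± 7.68 CPM in αKO and 33.1 ± 27.2 in WT, with a log2 fold change of -0.67 (SE 0.695). Both differences were within the spread between replicates, and the genotypes overlapped for each of the 6 members. Of all tested genes, 33.2% had libraries that did not overlap between the genotypes.

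The other members lay closer to 0. The log2 fold change was -0.40 (SE 0.518) for Ephb3, -0.20 (SE 0.710) for Ephb6, -0.14 (SE 0.415) for Ephb2 and 0.03 (SE 0.730) for Efnb1. The median of the 6 was -0.30, with 1 above 0 and 5 below it, and over all tested genes the median was -0.01. With WT replicate 2 left out the median of the 6 was 0.42, and with WT replicate 1 left out it was -0.85. The standard error, computed back from the same test, exceeded the difference for all 6 but Efnb2. The sign rested on single libraries: without WT replicate 2, the log2 fold change was 1.37 for Efnb1, 0.82 for Ephb6, 0.55 for Ephb4, 0.29 for Ephb3 and 0.26 for Ephb2. With WT replicate 1 left out instead, it was -0.64 for Efnb1 and -1.31 for Ephb4. For Efnb2 the value stayed below 0, at -0.21 and -1.51 in these fits.

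A fit with a GC offset per library gave standard errors of 0.208 to 0.456. In it the log2 fold change was -1.03 for Efnb2, -0.77 for Ephb4, -0.57 for Ephb3, -0.41 for Ephb6, -0.35 for Ephb2 and -0.05 for Efnb1. Ephb4 had an unadjusted p of 0.0281 in edgeR's test (adjusted p = 0.393), and none of the 6 passed the adjusted threshold. Ephb4 was the only member at an unadjusted p under 0.05, beside 11.7% of all genes in either direction and 6.96% lower in αKO. With the GC trend removed, both αKO libraries lay below both WT libraries for 5 of the 6 members, all but Efnb1, and for 23.6% of all tested genes. Without that step they did so for 0 of the 6, and for 16% of all tested genes. For Ephb4 the levels with the trend removed were 4.03 and 4.30 in αKO and 4.66 and 5.17 in WT on the log2 CPM scale. For Efnb2 they were 4.04 and 3.10 in αKO and 4.14 and 5.06 in WT.

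**Figure D4:**
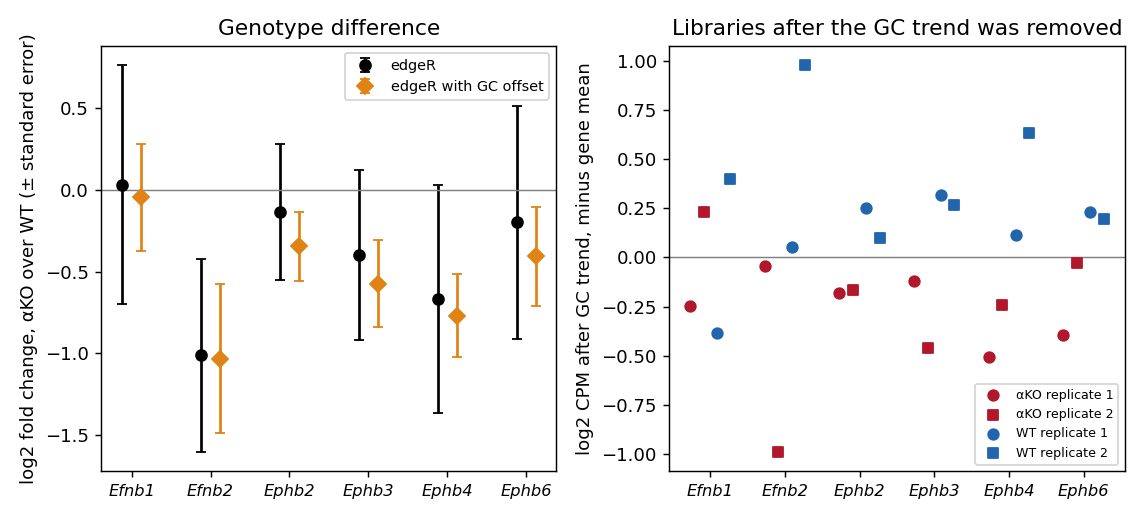
Log2 fold change of αKO over WT for the 6 tested members, from edgeR's fit as counted and with a GC offset per library. Bars give the standard error, computed back from the test. Efnb2 lies lowest in both, at -1.01 and -1.03, and Efnb1 lies at 0.03 and -0.05.

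The excluded members were described by their counts. Efnb3 had 6 and 3 counts in αKO and 7 and 10 in WT. The ratio of αKO to WT after scaling was 0.547, with a counting interval of 0.215 to 1.30. Ephb1 had 1 and 1 counts in αKO and 1 and 3 in WT, a ratio of 0.516 with a counting interval of 0.0467 to 3.60. Both intervals included 1, so no difference was detectable at this depth.

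The ephrin-A ligands, anchored to the membrane by a lipid, and their EphA receptors were compared as the related family. Of 14 listed genes 10 could be tested, of which 9 had a log2 fold change below 0, with a median of -0.92. Without WT replicate 2 the median was -0.36. edgeR, its likelihood ratio test, DESeq2 and limma voom each called 0 of the 10 at an adjusted p under 0.05, and both αKO libraries lay below both WT libraries for 6 of the 10, beside the 16% of all tested genes given above. Efna5, a ligand known in axon guidance, had 7.39 and 9.32 CPM in αKO and 18.7 and 14.9 in WT. Its log2 fold change was -1.01 (SE 0.373, edgeR adjusted p = 0.902), and it was the only one of the 10 at an unadjusted p under 0.05, where 2.59% of all genes were lower in αKO. Epha3 had 10.02 and 10.4 CPM in αKO and 33.5 and 14.2 in WT, with a log2 fold change of -1.22. Epha2, an EphA receptor also known from epithelia, had 11.7 and 15.2 CPM in αKO and 12.4 and 107 in WT, so that 1 library carried its log2 fold change of -2.15. Without WT replicate 2 it was 0.08, and without WT replicate 1 it was -2.97. Whether the ephrin-A and ephrin-B families differed from each other was not tested.

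**Figure D5:**
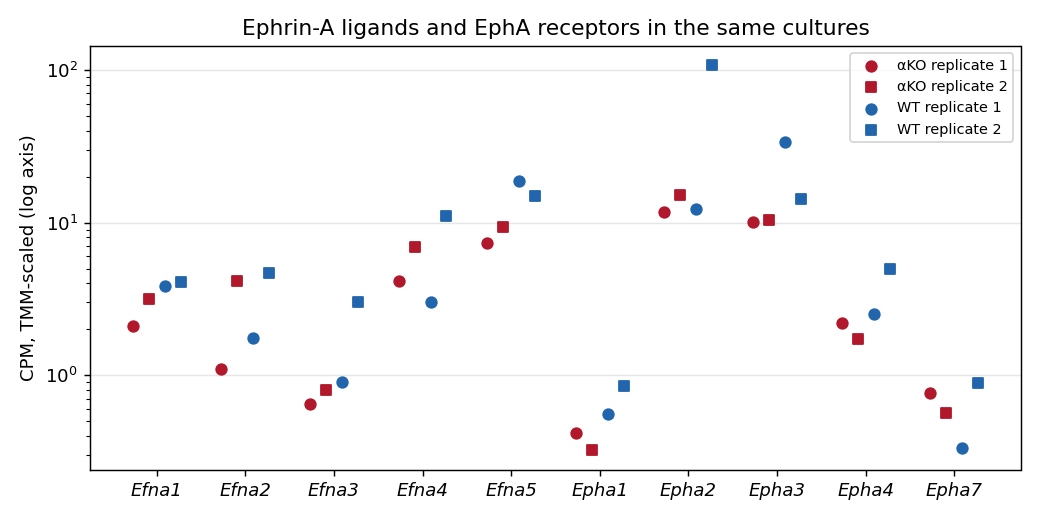
Level in CPM (log axis) of the tested ephrin-A ligands and EphA receptors in each library. Efna5 lies at 7.39 and 9.32 CPM in αKO and at 18.7 and 14.9 in WT, and Epha2 reaches 107 CPM in WT replicate 2 only.

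Genes known to act with the members were read from lists of forward-signalling partners, reverse-signalling partners, ligand-cleaving proteases and bone-coupling genes, and edgeR, its likelihood ratio test, DESeq2 and limma voom each called 0 of them at an adjusted p under 0.05. Of 25 tested partners of the receptor kinase, 10 lay above and 15 below 0, with a median log2 fold change of -0.27. Leaving out WT replicate 1 gave a median of -0.040, and leaving out WT replicate 2 gave -0.13. Yes1, a Src-family kinase, had 9.42 ± 0.257 CPM in αKO and 20.1 ± 3.45 in WT, a log2 fold change of -1.09 (SE 0.354, edgeR adjusted p = 0.902). Grb10, an adaptor that binds activated receptors, had 155 ± 18.2 CPM in αKO and 259 ± 0.171 in WT, a log2 fold change of -0.74. Grb2, the adaptor that links receptors to Ras, had 267 ± 10.96 CPM in αKO and 167 ± 33.1 in WT, a log2 fold change of 0.68. Yes1 and Grb10 were the only 2 of the 25 at an unadjusted p under 0.05, both lower in αKO, beside 2.59% of all genes. The other 3 lists held 0 such genes.

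Of 11 tested partners of the ephrin-B tail, 6 lay above and 5 below 0, with a median log2 fold change of 0.03. It was -0.24 without WT replicate 1, 0.84 without WT replicate 2 and -0.14 without αKO replicate 2. Tjp1, a junctional PDZ scaffold, had 41.2 ± 11.1 CPM in αKO and 75.8 ± 19.0 in WT (-0.88 on the log2 scale). The 10 tested proteases that cut ephrins and their receptors had a median of 0.18, with 7 above and 3 below 0, and of 0.092 to 0.28 with 1 library left out. Of 8 tested bone-coupling genes, 7 lay below 0, with a median of -1.03, which was 0.012 without WT replicate 2. Among them Pth1r, the parathyroid hormone receptor, had 23.3 ± 14.8 CPM in αKO and 51.3 ± 6.93 in WT, a log2 fold change of -1.14. With 1 WT library left out, some genes of these lists and of the ephrin-A family were called. A lone library then stood for WT, so these calls were not read as differences. Summed endothelial markers were 11.9 and 16.3 CPM in αKO and 19.99 and 22.0 in WT. Of these, Esam held 4.42 and 9.93 CPM in WT. Esam and Ptprb were higher in WT replicate 2 than in WT replicate 1, and Pecam1, Cdh5, Kdr and Emcn lower. Summed mural-cell markers were 278 and 279 CPM in αKO and 218 and 605 in WT. Most of the latter sum was Pdgfrb, at 250 and 232 CPM in αKO and 184 and 541 in WT. Rgs5 and Abcc9 were lower in WT replicate 2 than in WT replicate 1, and Cspg4, Myh11 and Notch3 higher. Summed lymphocyte markers were 1.35 to 1.86 CPM, with 6 of the 11, Cd3e among them, at 0 counts in every library. Summed neural and glial markers were 18.05 and 18.1 CPM in αKO and 14.001 and 43.5 in WT, of which Tubb3 had 12.07 and 12.1 in αKO and 5.28 and 36.2 in WT, and Rbfox3 and Snap25 had 0 counts in every library. Summed osteoclast markers were 862 and 803 CPM in αKO and 1288 and 924 in WT, lower in both αKO libraries, while 7 of the 9 had a log2 fold change above 0, with a median of 0.23. The part of these cells, or of the macrophage and osteoblast markers given above, in the levels of the members was not tested.

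The genes whose levels followed those of a member most closely were found by the root mean square difference of centred log2 CPM over the 4 libraries. With 4 values per gene and 13570 genes to choose from, a near neighbour can arise for any gene. The GC trend was not removed for this search, and a link between a member and its neighbours was not tested. For Efnb2 the nearest of 13570 genes was Nr2f2, a nuclear receptor of venous identity, at 0.0953, followed by Wbscr17 at 0.103 and Inhba, a subunit of activin, at 0.110. Nr2f2 had 4.80 and 2.82 CPM in αKO and 4.08 and 12.6 in WT, and like Efnb2 was lowest in αKO replicate 2 and highest in WT replicate 2. Inhba had 53.9 and 30.6 CPM in αKO and 56.2 and 119 in WT. For Efnb1 the nearest was Homer3 at 0.0299, and for Ephb4 it was Dusp9 at 0.0338. For Ephb2 it was Dmap1 at 0.0217, for Ephb3 Usp36 at 0.0207 and for Ephb6 Cdc42bpg at 0.0482. Among the members themselves, Ephb2 and Ephb3 were the closest pair at 0.193, followed by Ephb4 and Ephb6 at 0.221. Efnb1 and Efnb2 were the farthest apart at 0.901. With the GC trend removed, Ephb2 and Ephb6 were the closest pair at 0.137, followed by Ephb2 and Ephb3 at 0.176, and Efnb1 and Efnb2 remained the farthest apart at 0.716.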

How the data were processed

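RNA from osteocyte cultures of 2 αKO and 2 WT libraries was sequenced. The authors trimmed reads, counted them per gene and deposited raw counts, and the deposited TPM were made by the authors from these data. The submitters' processing notes name Trimmomatic 0.35, HTSeq 0.9.1, R 3.4.0 and DESeq2 1.16.1. Normalized counts and a sheet of the authors' own fold changes and p-values were not used here.

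Library totals were 25136628 to 27496137 counts. Counts of genes passing edgeR's filterByExpr (minimum count 10, 13571 genes) were scaled by TMM and tested by the quasi-likelihood test (edgeR 4.0.16 in R 4.3.3) with Benjamini-Hochberg adjustment over all of them at 0.05. For the GC offset, log2 CPM was centred on each gene's mean over the 4 libraries. A lowess trend (span 0.3) of these values on GC content was then removed per library. Standard errors of edgeR's fits were computed back from the test, as the log2 fold change over the square root of its F statistic. Ratios were compared by exact permutation. The test was tested on simulated data. Alternatives were DESeq2 1.42.0, limma 3.58.1, other filters and scalings, a replicate block and leaving out each library. All 8 members were described. Of other lists, the genes with the smallest p, at most 2 per direction, could be named, and for each tested member its nearest genes over the libraries. The members, lists and rules were chosen with earlier results of these data known.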

Additional observations from a re-analysis of the deposited data

How the results depend on the processing

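With 2 libraries per genotype, no alternative called a member: 0 of 78 member fits passed, and the lowest adjusted p was 0.0544, for Efnb2 without WT replicate 1. Over all genes, edgeR's quasi-likelihood test called 0, DESeq2 50, edgeR's likelihood ratio test 28, and fits without 1 library 1 to 806, where the lone library is assumed to vary like the other genotype. Efnb2 stayed below 0 in 13 of 13 alternatives (-1.51 to -0.21). Efnb1 turned to -0.034 with library sizes alone, -0.048 with the GC offset and -0.014 with the GC offset and replicate block. Leaving out 1 library at a time gave log2 fold changes of -0.64 to 1.37 for Efnb1, -0.44 to 0.26 for Ephb2, -0.85 to 0.29 for Ephb3, -1.31 to 0.55 for Ephb4 and -0.79 to 0.82 for Ephb6. It gave -1.29 to 0.31 for the log2 ratio of Efnb2 to Ephb4, and 0.31 to 0.66 for the log2 ratio of ligands to receptors.

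The libraries share only a replicate number. Deviations of same-numbered libraries correlated across 13571 genes at 0.487, and at 0.164 with the GC trend removed. With the replicate number as a block, 1 gene and 0 members were called, with log2 fold changes of 0.30 for Efnb1, -0.91 for Efnb2 and -0.43 for Ephb4.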
